A study of Rhipicephalus microplus with 8 samples.

Results

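Among the transcripts of the cattle tick Rhipicephalus microplus that differ between feeding larvae and feeding nymphs, 100 stood higher on every nymph array than on every larva array. They were chosen by the stage contrast itself: the lowest of the 4 nymph arrays lay at least 1.5 above the highest of the 4 larva arrays, on the scale of log2 ratios to a common reference pool. Of the 13459 features of the deposited value table, 151 met that gap. A feature was kept where the mean of its 4 larva arrays minus the mean of its 4 nymph arrays equalled, within 1.2e-09, 1 log2 fold change in the authors' deposited table of larvae against nymphs, which gave it a probe name. This left 100 of the 6516 features that could be named over all 8 arrays. Of the other 51, 45 matched a fold change computed over fewer arrays and 6 matched none. The number depends on the gap: it was 196 with a gap of at least 1.0, 43 with at least 2.0, and 233 with 1.5 after quantile normalisation between arrays.

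The larvae were whole ticks of day 4 after infestation and the nymphs whole ticks of day 7, both of mixed sex and of the Mozambique strain, fed on Holstein-Friesian cattle. Each stage had 2 biological replicates, with 2 arrays each. Tick RNA carried Cy5 and the reference pool Cy3 on all 8 arrays, without a dye swap. A dye bias therefore cancels in a difference between groups only where it is the same on the arrays compared. The pool joined whole ticks of days 4, 5, 7, 13 and 15 with tissues of adult females taken on day 20, all of the Mozambique strain. The authors' deposited tables also set both stages against 3 further groups, coded G, O and S. The labels do not spell out these codes, and no array of these groups was analysed here, so the number of ticks or arrays behind them is not known. The design text speaks of tissues, so a difference between a stage and a coded group may set whole bodies against dissected material. In such material, fewer cells of a type and less RNA per cell cannot be told apart.

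Rhipicephalus microplus attaches to a host as a larva and stays on that animal through both moults, feeding as larva, nymph and adult. Feeding ticks secrete saliva at the bite, take up and digest blood in the gut cells, and lay down new cuticle before each moult. The larva has hatched from the egg and the nymph has passed the first moult. Which of these processes the 100 transcripts serve could not be examined. Their probes carry contig names or other sequence names, and none is paired with a gene here. The RefSeq gene table given for the USDA_Rmic assembly held none of the 100 names (0 matches), which leaves the members without gene, position or sequence here. Whether several contigs stem from the same transcript is not known either. For the same reason the whole-body samples could not be checked against marker genes. Contig names made up 81 of the 100, against 71.2% of all probes with a fold change. CV names made up 10, against 13.2%, and CK names 2, against 9.87%. TC names made up 5, against 3.60%, AA names 1, against 0.140%, and U names 1, against 0.206%.

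The members' values in the stages are a description of the choice and were given no test. The median over the members was between -1.18 and -1.14 on the 4 larva arrays and between 1.41 and 1.59 on the 4 nymph arrays. Over the 6516 named features the array medians were between -0.13 and -0.02. Over all 13459 features they were between 0.20 and 0.32 on the larva arrays and between -0.07 and -0.05 on the nymph arrays. With each array centred on its median before the gap was taken, 149 named features met it, and all 100 members were among them. The median of nymphs minus larvae was 2.52 in log2 (quartiles 2.23 and 3.21), from 1.83 to 6.85. The difference reached 8-fold for 31 members. In nymphs 87 members were above the reference pool, 65 of them at least 2-fold, whereas in larvae 15 were above it. Of the 6516 named features, 2932 were above it in nymphs, 481 of them at least 2-fold, and 3081 in larvae. Among the members the low larval level was thus mostly a level below the pool, and the high nymphal level mostly one above it. In the authors' deposited table all 100 were past an adjusted p of 0.05 with nymphs above larvae, against 21.5% of all 10695 probes with a fold change, but the choice used that contrast. The shares of all probes given here rest on these 10695, which include probes beyond the 6516 named features. Members could come only from the 6516, over which these shares were not computed.

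**Figure D1:**
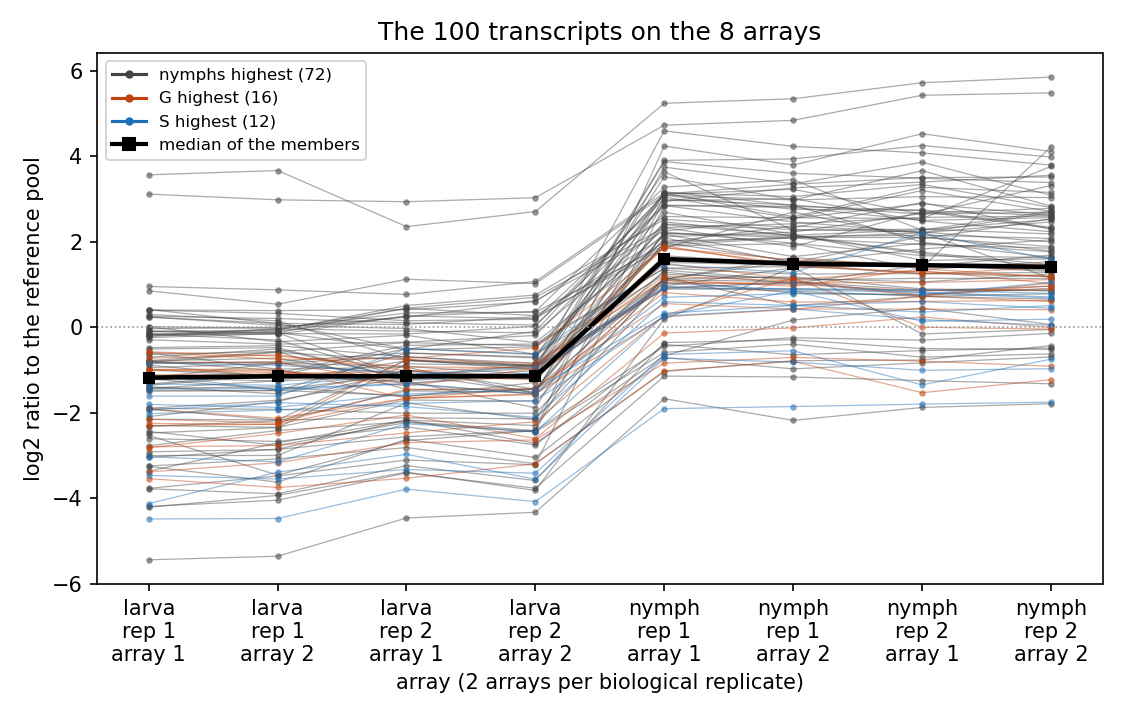
Log2 ratio of each of the 100 transcripts to the reference pool (vertical axis) on each of the 8 arrays (horizontal axis), with 1 line per transcript coloured by the group that has its highest level, and the median in black. The median stays between -1.18 and -1.14 on the larva arrays and between 1.41 and 1.59 on the nymph arrays.

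Contig571 had the widest gap, 6.20. Its larva arrays read -2.91, -2.86, -2.56 and -2.41, and its nymph arrays 4.24, 3.79, 4.53 and 4.11. Averaged by replicate, larvae stood at -2.68 ± 0.28 and nymphs at 4.17 ± 0.21 (SD, n = 2), or 115-fold higher. Contig7464 came next with a gap of 4.44. Its larva arrays read -2.77, -2.41, -2.21 and -2.41, and its nymph arrays 2.96, 3.01, 2.49 and 2.24. The means of -2.45 ± 0.20 and 2.67 ± 0.44 (SD, n = 2) lie 34.8-fold apart. At the other end, Contig6385 was just inside the limit with a gap of 1.5001, and Contig5664 just outside it with 1.4966.

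Replicates of the members differed far less than the stages, as the choice requires. The SD over the 2 biological replicates had a median of 0.28 in larvae and 0.16 in nymphs. Over the 6516 named features these medians were 0.14 and 0.21. Contig1978 was among the members with the most unlike larva replicates, with arrays at -2.25 and -2.27 in replicate 1 and at -0.75 and -0.85 in replicate 2. Its nymph arrays, between 0.96 and 1.37, were clear of all of them, as the choice requires of every member. Larva replicate 2 was the higher one for 65 of the 100 members, against 45.8% of the named features, with a median difference of 0.20. In nymphs replicate 2 was the higher one for 42, close to the 44.9% of the named features.

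To read the stage difference where it had not made the choice, the same gap was applied to replicates 1 of both stages alone, among the 6516 named features, and the difference was read in replicates 2. The numbers served only to divide the arrays. This chose 222 features, which necessarily include all 100 members. In replicates 2 their median difference was 1.82 (1.15 for features chosen with a gap of 1.0), down from 2.33 in the choosing replicates, and 211 of the 222 had nymphs above larvae, against 51.6% of the named features. Both nymph arrays lay above both larva arrays in replicates 2 for 206 of them, 92.8%, against 35.7% of the named features. Chosen in replicates 2 and read in replicates 1, 160 features had a median difference of 2.26, against 2.24 in the choosing replicates, and nymphs above larvae in all 160. The full gap of 1.5 was met in both divisions by 120 features, of which 100 are the members. These sets are a description and were given no test.

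**Figure D2:**
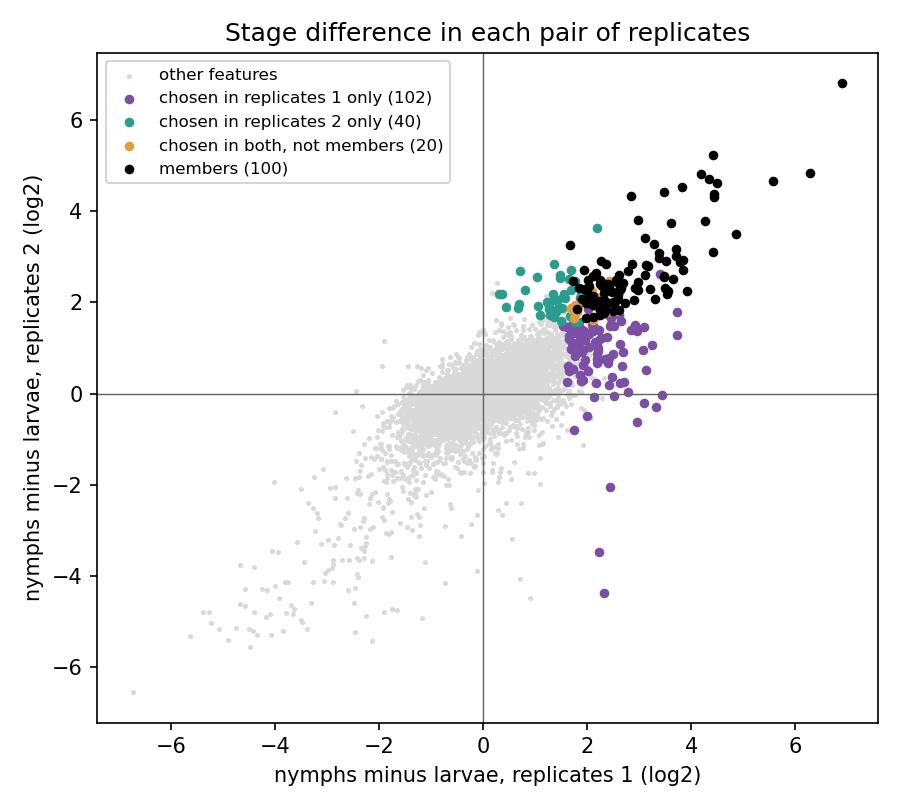
Nymphs minus larvae (log2) in replicates 1 (horizontal axis) and replicates 2 (vertical axis) for the 6516 named features, grey where not chosen. The 100 members are black, features chosen in replicates 1 only (102) purple, in replicates 2 only (40) green, and those chosen in both without being members (20) orange; 11 of the purple points lie below 0.

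Against the coded groups, most members had their highest level in nymphs, and the distance was widest to O. Each level of G, O and S on the scale of the reference pool was computed as the nymph mean plus the fold change in the authors' deposited table. The level was highest in nymphs for 72 of the 100 members, in G for 16 and in S for 12. It was highest in larvae or in O for none of them, larvae being kept from first place by the choice. Among all probes with nymphs above larvae in the authors' deposited table, nymphs had the highest level for 36.3%, O for 28.2%, G for 24.9% and S for 10.6%. The lowest level was that of O for 68 members, of larvae for 16, of G for 15 and of S for 1. For the same wider set the shares were 40.0% for O, 41.6% for larvae, 10.8% for G and 7.58% for S. These comparisons share the nymph or the larva arrays with the choice of members and with each other, and the orders were not tested.

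**Figure D3:**
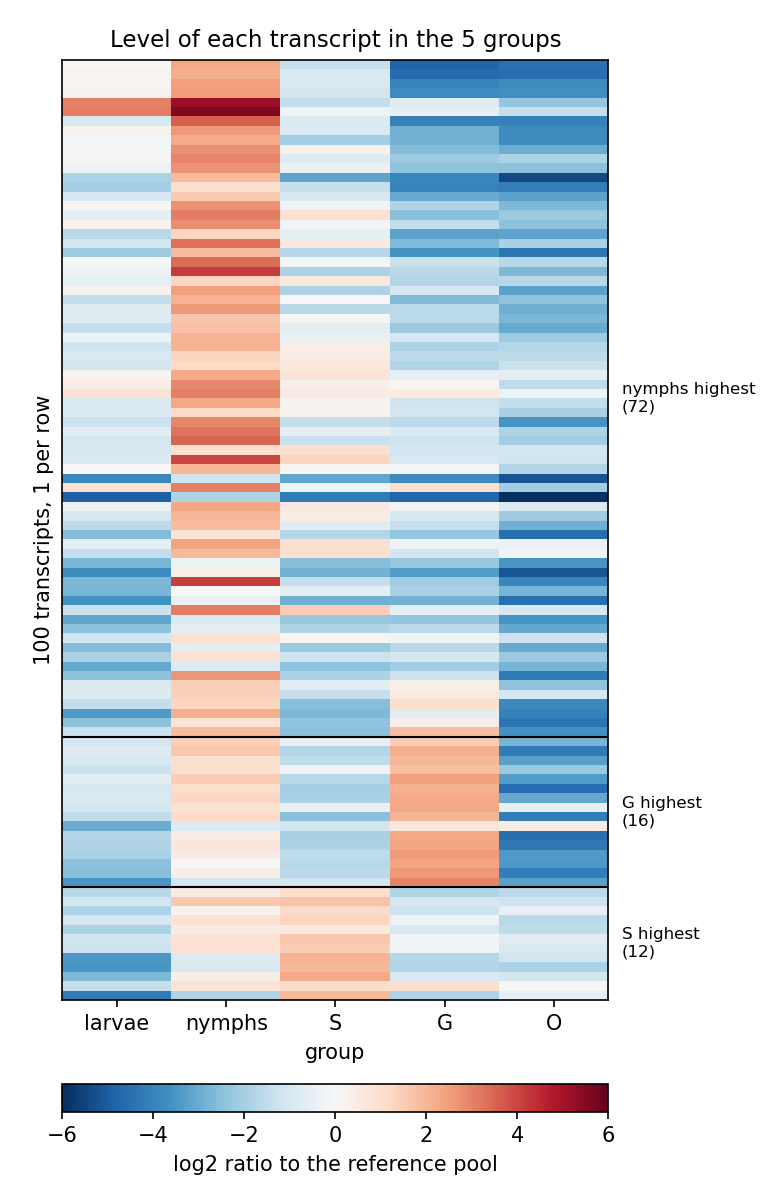
Level of the 100 transcripts (1 row each) in larvae, nymphs, S, G and O (columns) as colour, from -6 (blue) to 6 (red) on the scale of log2 ratios to the reference pool. Black lines part the 72 members highest in nymphs, the 16 highest in G and the 12 highest in S; O is pale to dark blue for nearly all rows.

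The median of nymphs minus O was 4.39 in log2 (quartiles 2.81 and 5.35), or 21.0-fold, compared with 0.10 over all probes in the authors' deposited table. Of the 100 members, 96 were past the authors' adjusted p of 0.05 with nymphs above O, against 38.5% of all probes, and 2 with nymphs below O, against 34.7%. Nymphs were above G by a median of 2.72 (quartiles 1.05 and 4.51), against -0.05 over all probes, with 78 members past the authors' adjusted p, against 25.7% of all probes. For 15 members, against 30.3% of all probes, nymphs were past it below G. Nymphs were above S by a median of 2.37 (quartiles 1.44 and 3.29), against -0.01 over all probes, with 84 members past the authors' adjusted p in the deposited table, against 23.6% of all probes. For 8 members, against 25.7% of all probes, nymphs were below S, and for 4 with a 2-fold minimum. Of the 2 members with nymphs below O, 1 was past an adjusted p of 0.01. For the 233 features that met the gap after quantile normalisation, the median of nymphs minus G was 1.54. The choice used the same nymph arrays as these 3 medians, and how far this raised them was not tested. With features chosen in replicates 1 and the nymph level read in replicates 2, they were 2.81 for O, 1.39 for G and 1.44 for S over 222 features. In the opposite division they were 3.71, 2.05 and 2.11 over 160. Both sets hold features beyond the 100 members, so the change of set and the selection cannot be told apart in these values. The fold changes weight technical repeats like separate arrays. Should the authors' p-values rest on the same weighting, they reflect array-to-array spread more than that between ticks.

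Larvae, in which the members are below the nymph level by choice, were nevertheless above O for most of them. The median of larvae minus O was 1.33, against 0.14 over all probes in the authors' deposited table, and 0.88 where features named through a fold change over fewer arrays were kept as well. Larvae were past the authors' adjusted p above O for 68 members (38.1% of all probes) and below O for 12 (33.4%). Against G, larvae had a median of -0.13, with 30 members past the authors' adjusted p above G (28.2% of all probes) and 40 below it (31.9%). The share above G was close to that of all probes, and the median was 0.11 for the 43 members with a gap of at least 2.0. Against S, the larval median was -0.65, with 21 members above (25.5% of all probes) and 51 below (26.4%) in the authors' deposited table. The count below S was 32 with a 2-fold minimum, and the median was -0.0652 for the 233 features that met the gap after quantile normalisation.

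**Figure D4:**
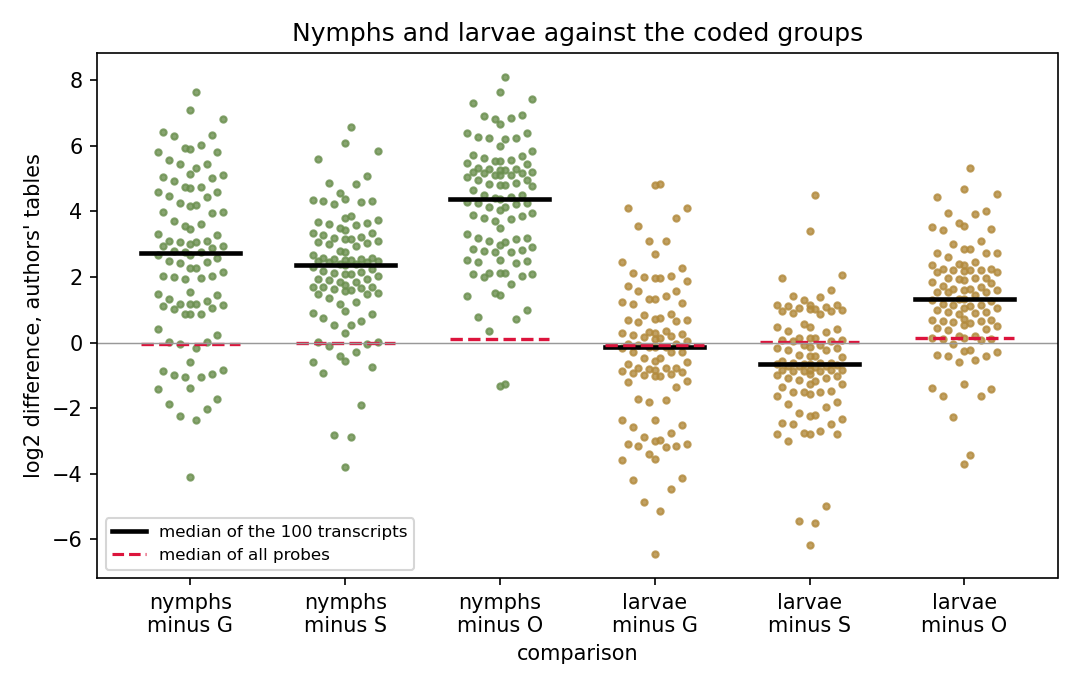
Log2 differences of nymphs (green) and larvae (brown) against G, S and O for the 100 transcripts (points), from the authors' deposited tables. Black bars are the medians of the transcripts (nymphs minus O at 4.39, larvae minus O at 1.33) and dashed red bars those of all 10695 probes.

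The 72 members highest in nymphs, grouped by that order, held the largest differences of nymphs from G, O and S. The second highest level was that of S for 36 of them, of larvae for 22 and of G for 14. Against that second group, nymphs were past the authors' adjusted p for 34, 22 and 11 of these. The ranking thus includes near ties, with a smallest lead of nymphs of 0.01 over S and 0.02 over G. Contig571 stood at -2.12 in G, -3.94 in O and -1.43 in S. In the authors' deposited tables its nymph level of 4.17 was 78.0-fold above G (adjusted p = 1.24e-12), 275-fold above O (1.15e-14) and 48.4-fold above S (3.32e-11). Contig8317 read -0.79, -0.72, -1.24 and -1.11 on the larva arrays and 3.87, 3.60, 3.49 and 3.38 on the nymph arrays. It had the largest nymph difference from G of all members, 7.64 on the log2 scale, and the same value against O, in the authors' deposited tables (adjusted p = 1.2e-10 and 4.33e-11). Its levels in G and O, -4.05 and -4.06, lay well below those in larvae, -0.97, and in S, -0.80.

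For 22 members the larval level, although below that of nymphs by choice, ranked above the level of all 3 coded groups. The ranking compares levels without a test. Their median of larvae minus G was 2.01, of larvae minus O 2.80 and of larvae minus S 0.97 in the authors' deposited tables. Contig1332 and Contig538 had the largest margin of nymphs over whichever coded group came nearest. Contig1332 read 3.11, 2.98, 2.94 and 3.03 in larvae and 4.72, 4.84, 5.42 and 5.48 in nymphs, above the reference pool throughout. In the authors' deposited tables its nymph level was 59.8-fold above G (adjusted p = 3.4e-15), 173-fold above O (8.41e-17) and 96.3-fold above S (8.39e-16). Contig538 read 3.56, 3.67, 2.35 and 2.71 in larvae and 5.24, 5.34, 5.72 and 5.85 in nymphs. Its nymph level exceeded G 65.2-fold, O 119-fold and S 57.8-fold in the authors' deposited tables (adjusted p = 3.65e-07, 4.56e-08 and 8.64e-08). These 2 members had the highest larval levels of all 100, and nymphs still exceeded larvae 4.29-fold and 5.52-fold. Contig526 was lower in larvae, at 0.30, 0.15, -0.76 and -0.99, and read 4.59, 4.23, 4.08 and 3.79 in nymphs. In the authors' deposited table it was 67.8-fold above S in nymphs (adjusted p = 7.63e-13).

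Contig4931 and Contig3667, like Contig8317, were far lower in G and O than in S. They were not alone in this: S was at least 8-fold above G for 10 members, against 0.757% of all probes, and at least 8-fold above O for 8, against 1%. In the other direction, S was at least 2-fold below G for 22 members, against 7.3% of all probes. For 14 of the members it was at least 8-fold below G, but the share of all probes at 8-fold downwards was not computed. Contig4931 read between -0.21 and 0.26 in larvae and between 1.98 and 2.68 in nymphs, and stood at -4.80 in G, -4.50 in O and -1.37 in S. Contig3667 read between -0.03 and 0.35 in larvae and between 1.92 and 2.46 in nymphs, and stood at -4.63, -4.50 and -0.93. Nymphs exceeded G 138-fold and 112-fold in the authors' deposited table (adjusted p = 9.82e-12 and 1.13e-11), while S exceeded G 10.8-fold and 13.0-fold.

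The 16 members highest in G had S at least 2-fold below G in every case, and O at least 2-fold below G in all but Contig1992. The median of G minus O was 5.88 in log2. That of S minus G was -4.10, with a range from -4.52 to -1.72. Nymphs lay between, with a median of -1.22 for nymphs minus G and 2.21 for nymphs minus S. These members were grouped by that order, and 15 of the 16 were past the adjusted p between G and nymphs in the authors' deposited table. Contig6598 was the exception, with levels of 1.45 in nymphs and 1.48 in G (adjusted p = 0.889). Contig6280 had the largest excess of G. It read -3.54, -3.75, -3.53 and -3.19 in larvae and -1.02, -0.79, -1.53 and -1.22 in nymphs, below the pool on all 8 arrays, and stood at 2.96 in G. G was 17.2-fold above nymphs in the authors' deposited table (adjusted p = 1.63e-12). Nymphs and S had nearly the same level, -1.14 and -1.17 (adjusted p = 0.923 in the authors' deposited table). TC17593 read between -2.81 and -2.05 in larvae and between -0.14 and 0.24 in nymphs, and G was 5.10-fold above nymphs in the authors' deposited table (adjusted p = 2.57e-09).

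Contig8822 and Contig598 had the widest distance between G and O, 115-fold and 107-fold from the authors' deposited tables. Contig8822 read -1.91, -2.13, -1.66 and -1.42 in larvae and 0.55, 0.43, 0.42 and 0.41 in nymphs, and stood at 2.34 in G, -4.51 in O and -1.93 in S. Contig598 read -2.79, -2.77, -2.47 and -2.21 in larvae and 0.28, 1.15, 0.00 and -0.04 in nymphs, and stood at 2.59, -4.15 and -1.59. Both had G first, nymphs next and O last among the 5 groups. Contig1978, with the largest excess of G over S among all members, had G 22.9-fold above S and 1.82-fold above nymphs in the authors' deposited tables (adjusted p of the latter 0.0117). Contig2580 had the next largest, 20.0-fold, with nymphs at 1.89 ± 0.03 (SD, n = 2) and G at 1.87 (adjusted p = 0.934 in the authors' deposited table).

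Members highest in S numbered 12. Grouped by that order too, 8 of them were past the adjusted p between S and nymphs in the authors' deposited table, and the median of nymphs minus S was -0.67 in log2. The median of S minus G was 2.57 and that of S minus O 2.56. Contig4443 had the largest excess of S over nymphs. It read -4.48, -4.47, -3.78 and -4.07 in larvae and -1.90, -1.85, -1.80 and -1.75 in nymphs, and stood at 1.97 in S, 13.9-fold above nymphs in the authors' deposited table (adjusted p = 8.98e-11). Its O level of -0.50 was also above nymphs, 2.51-fold (adjusted p = 2.63e-05 in the authors' deposited table), while G at -1.83 had the nymph level. Contig1520 read between -3.55 and -3.33 in larvae and between -1.35 and -0.55 in nymphs, with S at 2.06, or 7.35-fold above nymphs in the authors' deposited table (adjusted p = 2.62e-10). Contig2339 read between -4.12 and -2.97 in larvae and between -1.01 and -0.72 in nymphs, with S at 1.93, or 7.02-fold above nymphs in the authors' deposited table (adjusted p = 0.00192).

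Nymphs had neither the highest nor the second highest level in 3 members. These were Contig4443, Contig1992 and Contig3566, the last named for this exception after its values were seen. Contig1992 read -3.38, -3.16, -2.70 and -2.63 in larvae and -0.84, -0.71, -0.79 and -0.91 in nymphs. G at 0.61 and O at 0.45 were 2.69-fold and 2.40-fold above nymphs in the authors' deposited tables (adjusted p = 0.0269 and 0.0366). Contig3566 stood at 0.83 in nymphs, 1.00 in G and 1.12 in S, and neither coded group was past the authors' adjusted p against nymphs in the deposited tables (0.684 and 0.468).

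Differences among G, O and S are free of the arrays that chose the members, since the stage cancels when 2 fold changes of the authors' deposited tables are subtracted. No p-value exists for them, so they are given as values. S was above O for 98 of the 100 members, with a median of 2.09 in log2 (quartiles 1.37 and 2.51). Over all probes the median was 0.12, and 54.9% were above 0. The difference reached 2-fold upwards for 89 members, against 17.6% of all probes, and downwards for 1, against 14.1%. G was above O for 81 members, against 57.0% of all probes, by a median of 0.96, against 0.18 over all probes. It reached 2-fold upwards for 48, against 17.9% of all probes, and downwards for 1, against 15.4%. S was at least 2-fold above G for 46, against 10.3% of all probes, and at least 2-fold below G for 22, against 7.3%. The median of S minus G was 0.69, and it was -0.05 when the gap was taken after quantile normalisation between arrays, which chose 233 features, 98 of them members.

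**Figure D5:**
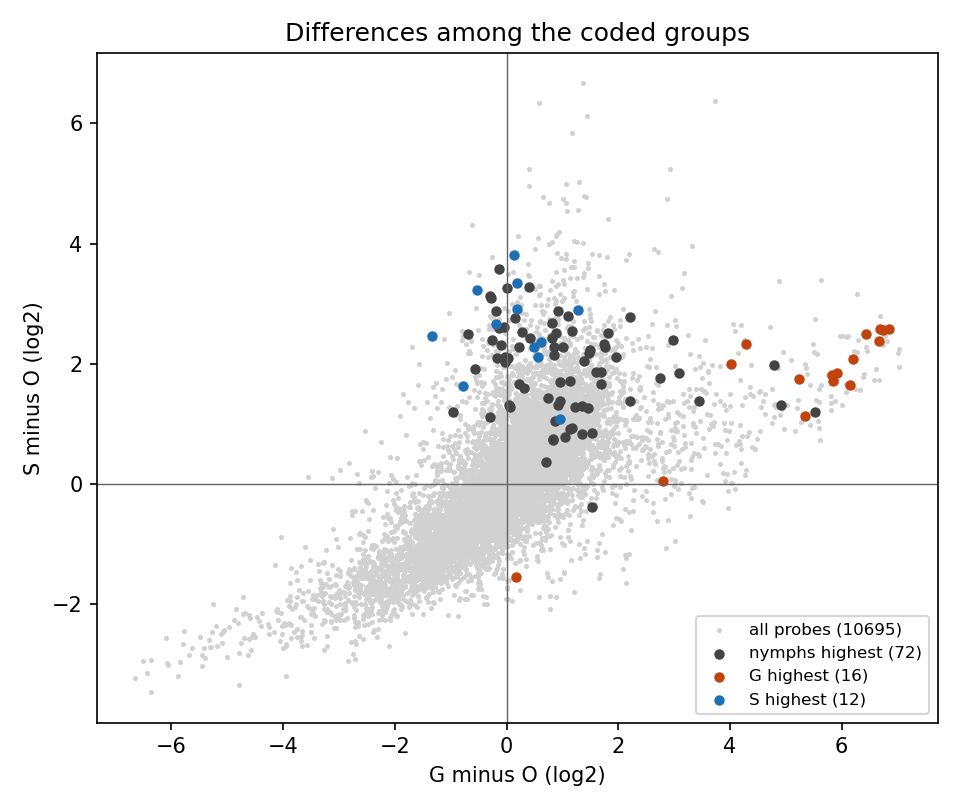
G minus O (horizontal axis) and S minus O (vertical axis), in log2, for all 10695 probes (grey) and the 100 transcripts (coloured by the group with the highest level), from the authors' deposited tables; the axes share O. All but 2 of the 100 lie above 0 on the vertical axis, and 15 of the 16 members highest in G lie at least 2-fold to the right of 0.

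The exceptions to S above O were Contig1992 and Contig7156. In Contig1992 O was 2.95-fold above S. Contig7156 read -1.33, -1.08, -0.42 and -0.39 in larvae and 1.38, 1.42, 1.45 and 1.42 in nymphs, and O was 1.30-fold above S; it was also the only member with its lowest level in S. Below O by at least 2-fold in G was Contig4443 alone, by 2.52-fold. The next lowest G relative to O was that of Contig688, 1.94-fold. Contig688 read between -1.62 and -1.29 in larvae and between 1.41 and 2.47 in nymphs, with nymphs 8.38-fold above G in the authors' deposited table (adjusted p = 3.64e-09).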

How the data were processed

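The value table holds 1 log2 ratio of tick RNA (Cy5) over the reference pool (Cy3) per feature and array, as deposited by the authors. The 7 comparison tables hold log2 fold changes, signed linear fold changes (a score here, unused, as deposited) and adjusted p-values by the authors, per the file headers. Per the submitters' processing notes, limma was used. Scanner, background correction and normalisation: not given in the sources used here. Signal over background is unknown without spot intensities, and the number of arrays limits the precision.

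The members and lists were chosen with earlier results of these data known. Technical repeats were averaged before a mean ± SD over 2 biological replicates, which the labels describe only as such. The tables were additive to within 4.8e-08. After moving the fold changes by small amounts, 0 features matched by chance. Calls are the authors' adjusted p under 0.05; no test was fitted here. The named transcripts are the 2 widest gaps, the 2 highest and 2 lowest for nymphs minus each coded group and for each difference between coded groups, and the 2 with the largest smallest nymph difference. Members named as exceptions to small counts, and the features next to the threshold, were added. Choice and join were tested on simulated data. Python 3.11.15 and pandas 2.3.3 were used. Alternatives are given in the closing section.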

Additional observations from a re-analysis of the deposited data

How the results depend on the processing

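No paired fit was run, since no test was fitted here. Choosing members differently kept the sign of the medians of nymphs minus G, O and S and of larvae minus O and S in all 14 settings each, and of G minus O and S minus O in all 12. Every setting still chose features for high nymph and low larva arrays, and the sets overlap. The kept signs are therefore not independent checks, and the choice itself favours positive nymph medians. Larvae minus G was 0.11 with a gap of at least 2.0, and S minus G was -0.0493 after quantile normalisation. The number of members was 196 with a gap of 1.0, 43 with 2.0 and 233 after quantile normalisation, and between 125 and 149 without 1 biological replicate. The medians of nymphs minus G, O and S were 1.95, 3.35 and 1.77 with a gap of 1.0, 3.97, 5.19 and 2.68 with 2.0, and 2.42, 3.72 and 1.99 with arrays centred on their medians. They were 1.54, 3.06 and 1.68 after quantile normalisation, 2.50, 3.87 and 2.12 with first arrays only, 2.15, 3.86 and 2.04 with repeat arrays only, and 2.36, 3.77 and 2.04 with repeats averaged first. With fold changes over any arrays they were 2.48, 3.89 and 2.11, where larvae minus G was -0.48 and larvae minus O 0.88. Chosen in replicates 1 and read in replicates 2, an alternative added after seeing the data, they were 1.39, 2.81 and 1.44, with larvae minus S at -0.34; in the opposite division they were 2.05, 3.71 and 2.11. S minus O was 1.73 with a gap of 1.0 and 1.49 after quantile normalisation, where larvae minus S was -0.0652. Without 1 biological replicate, nymphs minus G, O and S ranged from 2.03 to 2.42, 3.41 to 4.08 and 1.92 to 2.26. S minus O ranged there from 1.71 to 1.91, S minus G from 0.39 to 0.69, G minus O from 0.94 to 1.04, and larvae minus G, O and S from -0.24 to -0.15, 1.14 to 1.31 and -0.62 to -0.44. An adjusted p under 0.01 left 1 member with nymphs below O, and a 2-fold minimum left 4 with nymphs below S and 32 with larvae below S. The stage difference read in the other replicates was 1.15 and 1.80 with a gap of 1.0, 2.27 and 2.82 with 2.0, and 2.07 after quantile normalisation for features chosen in replicates 2. Each of these settings changes the set chosen; any further cause was not tested. Counts past the threshold against all 3 coded groups together were not run, because those comparisons share arrays.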

Other observations

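Of the 222 features chosen in replicates 1, 11 had larvae above nymphs in replicates 2. Contig3598 was the most extreme, with larvae at -3.25 in replicate 1 and 2.39 in replicate 2, and nymphs at -0.93 and -1.98. Contig2104 was next, with larvae at -3.53 and 1.18 and nymphs at -1.31 and -2.29. Neither is among the 100 members, and both were named after their values were seen.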
